A study of Mus musculus with 2 samples.

Results

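The regions described here are 4584 intronic peaks of open chromatin in the mouse. They are listed as unique to the CD137 group, cultures differentiated from CD137+ adipose progenitors. They are all peaks of the CD137 list that carry the place class intron, so no measured value chose among the peaks of that list. The list itself holds only peaks called as unique to the group. They made up 31.7% of the 14483 CD137 peaks, and the series lists 22485 peaks in all. The 2688 intronic peaks of the PDGFRα list, 33.6% of its 8002 peaks, served as the reference. ATAC-seq, which uses a transposase to insert adapters into accessible DNA, was run on 1 library of CD137+ cells and 1 library of PDGFRα+ cells from C57BL/6 mice. Both groups were progenitors selected magnetically (MACS) from SAT or VAT, grown and differentiated with an adipogenic cocktail, and then given the glucocorticoid dexamethasone at 1 µM. The depot, the age and sex of the mice and any pooling of animals are not stated for either group, and because both groups received dexamethasone no value here measures the drug. The extraction text of the labels speaks of embryonic cells and of a zona pellucida, which does not match adipose tissue.

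CD137, the product of Tnfrsf9, is a surface receptor of the tumour necrosis factor receptor family and is used as a marker of beige adipocyte progenitors. PDGFRα, a receptor for platelet-derived growth factor, marks stromal progenitors that can give rise to fat cells. Introns hold many of the enhancers of mammalian genes, and an intronic stretch of open chromatin can act on the gene that contains it or on a gene elsewhere. Long genes of development, cell adhesion and guidance often carry many such elements.

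With 1 library in each group there was no replicate check, and no test or p-value is given. The intervals are 95% intervals, Wilson for shares, Newcombe for differences of shares and exact binomial for ratios, and they cover counting error only. The lists give the borders of each peak but no height or read number, so the depth of either library is unknown. A peak that both groups share is in neither list. A gene without a unique peak may therefore be open in both groups or in neither.

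Intronic peaks at the start of a gene were rare in both lists. Peaks in exons and upstream of genes have classes of their own, so this rarity follows in part from the class itself. Starts were known for the hosts of 3383 of the 4371 CD137 peaks with a host gene. The window from 250 bases before to 50 after a RefSeq transcription start lay fully inside 24 of the 4584 CD137 peaks (0.524%, interval 0.352 to 0.778%) and inside 20 of the 2688 PDGFRα peaks (0.744%, 0.482 to 1.15%). Of the 24 CD137 cases, 20 were starts of long noncoding RNA genes and 4 were starts of protein-coding genes. The 4 are Steap3, a metalloreductase of iron uptake, Kcnk10, a potassium channel, Slc17a1, a sodium-phosphate transporter, and Gpm6a, a membrane glycoprotein. Their upstream sequences are shown because these are the CD137 intronic peaks whose underlying bases can be read from the RefSeq promoter table of GRCm38.p6 and which coincide with a coding start. The windows are chr1:120258879-120259128 on the minus strand for Steap3, under a peak of 2091 bp, chr12:98575128-98575377 on the minus strand for Kcnk10, under a peak of 1472 bp, chr13:23868768-23869017 on the plus strand for Slc17a1, under a peak of 1335 bp, and chr8:54779184-54779433 on the plus strand for Gpm6a, under a peak of 1769 bp. Each line runs from 5′ to 3′ in the direction of the gene. Capitals mark matches on either strand to 4 motifs: AP-1 (TGANTCA), TEAD (GGAATG), the glucocorticoid receptor half-site (AGAACA) and C/EBP (TTGCNNAA).

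Steap3: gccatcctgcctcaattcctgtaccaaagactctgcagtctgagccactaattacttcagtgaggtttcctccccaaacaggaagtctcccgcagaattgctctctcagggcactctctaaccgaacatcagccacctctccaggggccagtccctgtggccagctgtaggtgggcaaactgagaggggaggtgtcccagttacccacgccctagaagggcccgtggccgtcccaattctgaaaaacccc
Kcnk10: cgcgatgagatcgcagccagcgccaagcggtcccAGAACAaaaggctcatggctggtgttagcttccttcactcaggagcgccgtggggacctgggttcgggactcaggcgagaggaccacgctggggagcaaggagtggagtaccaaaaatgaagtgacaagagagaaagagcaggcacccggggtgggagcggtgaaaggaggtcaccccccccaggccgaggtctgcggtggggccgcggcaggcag
Slc17a1: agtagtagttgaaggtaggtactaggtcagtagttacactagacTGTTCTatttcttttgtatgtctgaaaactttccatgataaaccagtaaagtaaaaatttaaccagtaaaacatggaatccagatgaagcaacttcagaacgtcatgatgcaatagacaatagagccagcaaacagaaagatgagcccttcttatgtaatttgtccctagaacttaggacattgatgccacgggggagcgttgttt
Gpm6a: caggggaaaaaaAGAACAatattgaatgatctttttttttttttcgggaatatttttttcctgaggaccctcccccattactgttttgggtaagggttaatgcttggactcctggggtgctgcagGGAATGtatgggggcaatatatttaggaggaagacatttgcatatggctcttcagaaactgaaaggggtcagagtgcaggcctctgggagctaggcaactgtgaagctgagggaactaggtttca

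The Kcnk10 window held 1 glucocorticoid receptor half-site, at base 35, the Slc17a1 window 1, at base 45 on the opposite strand, and the Gpm6a window 1, at base 13, together with 1 TEAD match at base 126. None of the 4 motifs was found in the Steap3 window. Among 32851 RefSeq windows, 16.1% held the glucocorticoid receptor half-site, 12.6% the TEAD letters, 6.75% the AP-1 letters and 9.56% the C/EBP letters. A match of letters describes the sequence and is not a binding site. No CD137 or PDGFRα intronic peak overlapped any of 1005 microRNA hairpins, and 16 CD137 and 14 PDGFRα peaks lay within 5 kb of one.

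The CD137 list held 1.71 intronic peaks for each PDGFRα intronic peak (interval 1.63 to 1.79). Their widths were alike, the median being 1223 bp for CD137 (middle 50% of peaks, 1033 to 1429 bp) and 1234.5 bp for PDGFRα (1027.75 to 1440.25 bp). Intronic peaks of at least 2000 bp made up 4.08% of the CD137 set, between 3.03% for intergenic and 11.8% for up5k peaks of the same list. The ratio of CD137 to PDGFRα intronic peaks was between 1.37 on chromosome 15 (168 and 123 peaks) and 2.01 on chromosome 6 (289 and 144 peaks) over the autosomes, and 1.59 on chromosome X (94 and 59 peaks).

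CD137 intronic peaks lay in 2432 protein-coding genes, which is 11.1% of the 21887 RefSeq genes examined, and PDGFRα intronic peaks lay in 1763 (8.06%). The host gene of a peak is the protein-coding gene around its centre. By this rule 4371 CD137 peaks (95.4%) had a host gene. Of the other 213, 93 lay in a RefSeq gene of another kind and 120 in no RefSeq gene. The host genes were long, with a median span of 116 kb (interquartile range 62.7 to 236 kb) for CD137 and 114 kb (58.1 to 234 kb) for PDGFRα, against 17.2 kb for all protein-coding genes.

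CD137 host genes carried more peaks each than PDGFRα host genes. The mean was 1.797 CD137 peaks per host gene against 1.45 for PDGFRα. Of the CD137 hosts, 1500 had 1 peak, 492 had 2, 300 had 3 or 4 and 140 had 5 or more. The corresponding numbers of PDGFRα hosts were 1289, 310, 120 and 44. Genes with 2 or more peaks made up 38.3% of CD137 hosts (interval 36.4 to 40.3%) and 26.9% of PDGFRα hosts (24.9 to 29.0%), and they held 65.7% and 49.6% of the hosted peaks. Among CD137 hosts, 9 genes had 10 or more peaks, a number that no PDGFRα host reached. With only the 2688 widest CD137 peaks, as many as in the PDGFRα set, 31.5% of CD137 hosts had 2 or more.

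Part of the host genes was common to both lists. The 886 genes with an intronic peak of each list were 36.4% of CD137 hosts (interval 34.5 to 38.4%) and 50.3% of PDGFRα hosts (47.9 to 52.6%), and 1546 genes had CD137 intronic peaks only. The share of CD137 hosts that also held a PDGFRα peak was 25.8% among genes with 1 CD137 peak, 41.7% with 2, 60.3% with 3 or 4 and 80.7% with 5 or more. Gene length moved with this order, with median spans of 83.3, 164, 268 and 468 kb, and its part in the rise was not tested. The genes richest in CD137 intronic peaks were thus mostly genes that also had an intronic peak of the other list.

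Peaks per gene rose with gene length in both lists, and the CD137 excess was largest in the longest genes. Per Mb of gene span (exons included), CD137 intronic peaks numbered 0.814 in genes under 20 kb, 2.43 from 20 to 50 kb, 4.14 from 50 to 100 kb, 5.63 from 100 to 300 kb, 4.96 from 300 to 1000 kb and 3.49 above 1000 kb. The PDGFRα values were 0.558, 2.06, 2.65, 3.22, 2.67 and 1.17 per Mb. Density thus peaked between 100 and 300 kb in both lists and was lower above 1000 kb, where the fall was steeper for PDGFRα. Taking all genes over 300 kb, the CD137 density was 5.64 times that of genes under 20 kb (interval 4.46 to 7.24). Only peaks classed as intron are counted, over spans that include exons, and the part of exons in this ratio was not tested.

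The ratio of CD137 to PDGFRα intronic peaks differed between length classes. It was 1.46 in genes under 20 kb (interval 1.01 to 2.14), 1.18 from 20 to 50 kb (1.02 to 1.37), 1.56 from 50 to 100 kb (1.39 to 1.76), 1.75 from 100 to 300 kb (1.62 to 1.89), 1.86 from 300 to 1000 kb (1.69 to 2.05) and 2.98 above 1000 kb (2.35 to 3.81). The highest class rests on 277 CD137 and 93 PDGFRα peaks in 59 genes. Without the 34 synaptic and neuronal adhesion genes, many of which are that long, its ratio was 3.17 (203 and 64 peaks). Among only the widest CD137 peaks, which set the overall ratio to 1, it was 1.46 (1.12 to 1.92, 136 and 93 peaks). The share of hosted peaks in genes over 300 kb was 4.93 percentage points higher for CD137 than for PDGFRα (Newcombe interval 2.68 to 7.16).

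**Figure D1:**
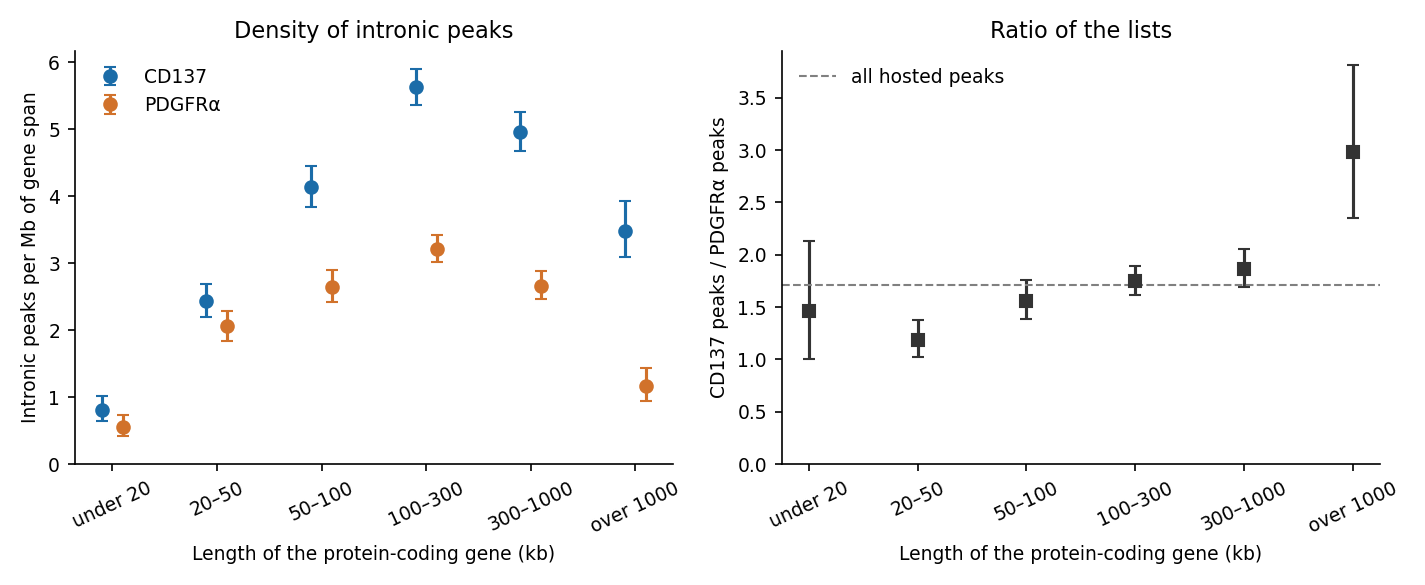
Intronic peaks per Mb of summed gene span (left) and the ratio of CD137 to PDGFRα intronic peaks (right) by length class of the protein-coding gene in kb. Points are single libraries, bars are 95% intervals of counting error, and the dashed line is the ratio over all hosted peaks; CD137 density is 5.63 per Mb at 100 to 300 kb, and the ratio reaches 2.98 above 1000 kb.

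Most long genes had a CD137 intronic peak. The share of genes with at least 1 was 0.608% under 20 kb, 7.36% from 20 to 50 kb, 23.1% from 50 to 100 kb, 51.4% from 100 to 300 kb, 78.1% from 300 to 1000 kb and 91.5% above 1000 kb (54 of 59 genes, against 39 of 59 for PDGFRα). Genes over 1000 kb had a median of 4 CD137 peaks (interquartile range 2 to 7, highest 17) and of 1 PDGFRα peak (0 to 2, highest 9). From 300 to 1000 kb the median was 2 CD137 peaks (1 to 4, highest 14) and 1 PDGFRα peak (0 to 2, highest 9). The variance of the number over the genes of a class was 2.98 times its mean for CD137 and 2.04 times for PDGFRα over 1000 kb, and 1.96 and 1.98 times from 300 to 1000 kb. Genes differ in length within a class, and the part of length in this spread was not tested. Of the 57 genes over 1000 kb with a peak of either list, 49 had more CD137 than PDGFRα intronic peaks (86.0%), 5 had fewer and 3 had equal numbers. From 20 to 50 kb the CD137 number was the larger one in 51.8% of 641 such genes.

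**Figure D2:**
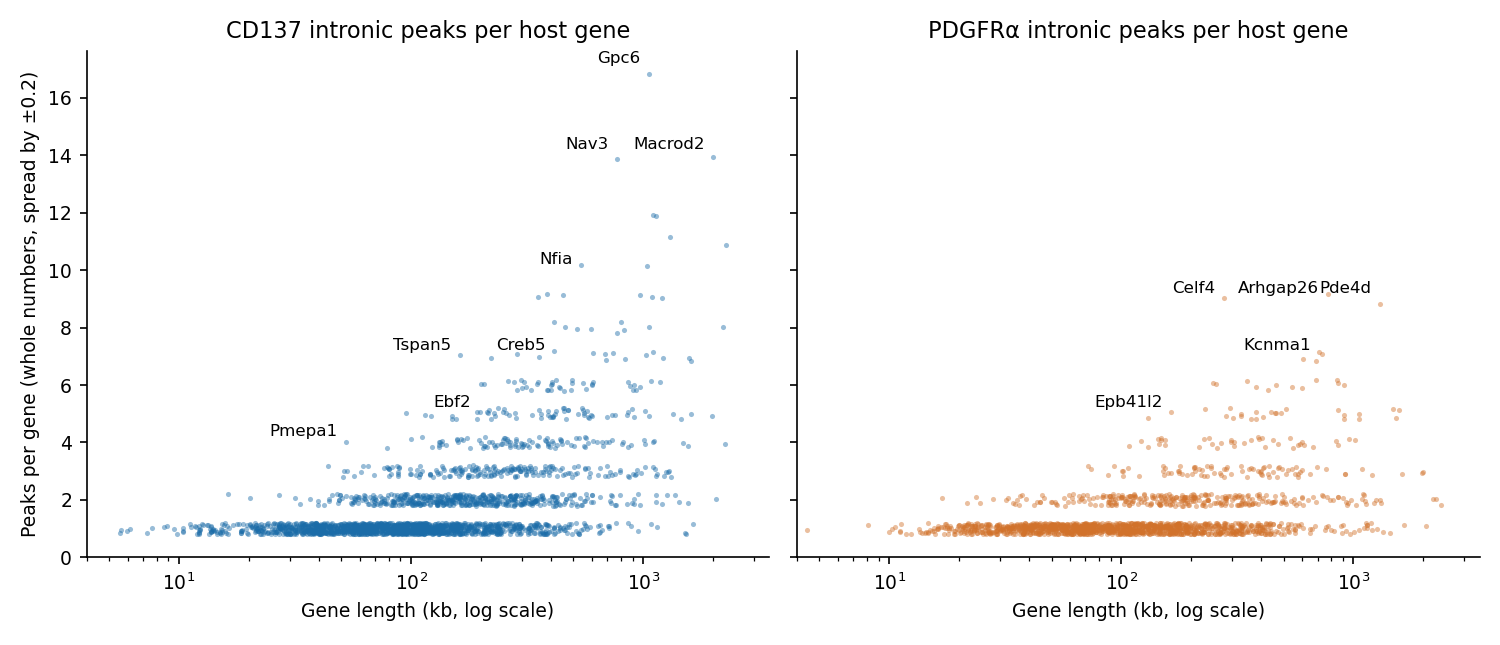
Number of intronic peaks in each host gene (vertical axis, spread by up to 0.2 for legibility) against gene length in kb (log scale), for CD137 (left) and PDGFRα (right). Each point is 1 gene; Gpc6 has 17 CD137 peaks and no PDGFRα host has more than 9.

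Each gene with 9 or more CD137 intronic peaks was longer than 300 kb. Of the genes tied at 9 peaks the shorter ones are described, and Cadm2, Asic2 and Prkg1 are named only. Gpc6, a glypican that carries heparan sulfate at the cell surface (chromosome 14, 116924920 to 117979529, 1055 kb), led with 17 CD137 and 5 PDGFRα peaks under ENSMUSG00000058571. Its CD137 peaks extended over 971 kb, which is 92.0% of the gene, with gaps between neighbouring centres of 8.83 to 160 kb and a median gap of 53.6 kb. Nav3, a microtubule-associated navigator protein (774 kb, ENSMUSG00000020181), had 14 and 1. Macrod2, which removes ADP-ribose from proteins (1998 kb), had 14 and 3. The ankyrin-repeat scaffold gene Anks1b (1100 kb) had 12 and 2, and Opcml, a GPI-anchored adhesion molecule (1135 kb), had 12 and 1. In each of these genes the CD137 peaks were spread along most of the span, from 69.0% in Macrod2 to 92.0% in Gpc6.

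The other 7 genes described had 9 to 11 CD137 peaks. Pde4d, a cAMP phosphodiesterase (1302 kb), had 11 CD137 and 9 PDGFRα peaks, so the numbers were near each other there. Ptprd, a receptor tyrosine phosphatase and with 2271 kb ranking 2 by length among all genes, had 11 and 2. Its CD137 peaks included a pair 1076 kb apart with no peak of the list between them. Nfia, a transcription factor with a part in brown fat formation (541 kb), had 10 and 6. Its CD137 peaks at 29.1 and 33.4 kb from the lower end stand under ENSMUSG00000048747, as does its PDGFRα peak at 87.2 kb. The other Nfia peaks stand under ENSMUSG00000028565, so the first ones are placed in Nfia by position only. Lrmda, a gene of melanocyte differentiation (1037 kb), had 10 and 0. Gse1, part of a corepressor complex (353 kb), had 9 and 2, Ltbp1, which binds latent TGF-β in the matrix (387 kb), had 9 and 1, and Sema5a, a semaphorin (452 kb), had 9 and 1. The Gse1 peaks stand under ENSMUSG00000092329, an ID that in the lists covers 14 RefSeq host genes with 40 CD137 and 19 PDGFRα intronic peaks, so Gse1 is named here by position only.

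Counted per 100 kb among genes with at least 4 CD137 intronic peaks, shorter genes led. Pmepa1, a TGF-β-induced inhibitor of TGF-β signalling (chromosome 2, 173224458 to 173276731, 52.3 kb, ENSMUSG00000038400), had 4 CD137 peaks, or 7.65 per 100 kb, and no PDGFRα intronic peak. Next were the CUE-domain gene Cuedc1 with 5 and 0 (5.26 CD137 peaks per 100 kb), the syntrophin gene Sntb2 with 4 and 0 (5.10), Galnt2, which starts mucin-type O-glycosylation, with 5 and 1 (4.37), and the tetraspanin gene Tspan5 with 7 and 1 (4.31). The transcription factor gene Ets1 had 5 and 0 (4.11), the ubiquitin ligase gene Ube4b 4 and 0 (4.01), and Prdm6, a smooth muscle regulator, 4 and 0 (3.57). For comparison, Gpc6 had 1.61 and Nav3 1.81 CD137 peaks per 100 kb. Of these 8 dense genes, 6 had no PDGFRα intronic peak, as had 1546 of the 2432 CD137 hosts in all, most of which had 1 CD137 peak. Hosts with 3 or 4 CD137 peaks had a PDGFRα peak in 60.3% of cases, and those with 5 or more in 80.7%. Their median spans were 268 and 468 kb, longer than the dense genes. The Galnt2 peaks stand under the same wide ID as those of Gse1, so this gene too is named by position only.

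Among the 777 genes with at least 3 intronic peaks in both lists together, 299 (38.5%) had at least 3 times as many CD137 as PDGFRα peaks and 60 (7.72%) had at least 3 times as many PDGFRα as CD137 peaks. With the widest CD137 peaks alone the first number was 136. The 6 genes with the largest CD137 excess were Nav3, Gpc6, Opcml, Macrod2, Lrmda and Anks1b, each with 10 or more CD137 peaks. The PDGFRα excess was largest in Celf4, an RNA-binding protein of neurons (0 CD137 and 9 PDGFRα peaks, 277 kb), followed by Kcnab1, a potassium channel subunit (0 and 6), Kcnma1, the large-conductance calcium-activated potassium channel (1 and 7), Epb41l2, a membrane skeleton protein (0 and 5), Farp1, a FERM-domain protein (1 and 6), and Fry, a microtubule-binding protein (1 and 6). The last 3 had an excess of 5 peaks, as had the longer genes Aff2, Chrm3 and Nlgn1 (0 and 5 each). Long genes thus occurred on both sides.

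Some of the longest genes had no CD137 intronic peak. Dmd, the dystrophin gene and with 2390 kb the longest of all, had 0 CD137 and 2 PDGFRα peaks. Agbl4, a deglutamylase of tubulin (1267 kb), had 0 and 1, Frmpd4, a postsynaptic scaffold (1106 kb), had 0 and 2, and Nlgn1, a postsynaptic adhesion protein (911 kb), had 0 and 5. Csmd3 (1212 kb) and Nkain2 (1208 kb) had no intronic peak of either list. Length alone did not fix the number of peaks.

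CD137 intronic peaks had a near neighbour of their own list in the same gene more often than PDGFRα peaks did. The share with another centre of the list and gene within 5 kb was 2.72% for CD137 and 1.72% for PDGFRα, within 10 kb 11.1% and 7.31%, within 20 kb 23.2% and 15.4%, within 50 kb 41.8% and 29.2%, and within 100 kb 55.4% and 39.4%. The difference at 20 kb was 7.85 percentage points (Newcombe interval 5.95 to 9.70). By length of the gene it was 12.7 points from 50 to 100 kb (8.28 to 16.9), 8.82 from 100 to 300 kb (5.57 to 11.9) and 6.39 from 300 to 1000 kb (2.45 to 10.1). The intervals included 0 above 1000 kb (7.31 points, -2.05 to 14.7), from 20 to 50 kb (-2.34, -6.70 to 1.83) and under 20 kb (-1.26, -10.9 to 6.05). With the widest CD137 peaks only, in a set of equal size, the difference over all hosts was 2.77 points (0.722 to 4.81).

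At an equal number of peaks per gene the spacing of the lists did not differ beyond its interval. Genes with exactly 2 peaks had a median gap of 41.1 kb in 492 CD137 hosts and 40.9 kb in 310 PDGFRα hosts, which is 25.4% and 24.4% of gene length. The difference of the relative gap was 0.979 percentage points (interval -4.50 to 4.99). With exactly 3 peaks the median gap was 37.4 kb for CD137 and 53.7 kb for PDGFRα, or 18.1% and 18.2% of gene length, and with exactly 4 it was 41.0 and 44.7 kb, or 14.0% and 15.7%. In genes with 2 peaks, 31.9% of the CD137 gaps (27.9 to 36.2%) and 26.5% of the PDGFRα gaps (21.9 to 31.6%) were at most 20 kb.

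**Figure D3:**
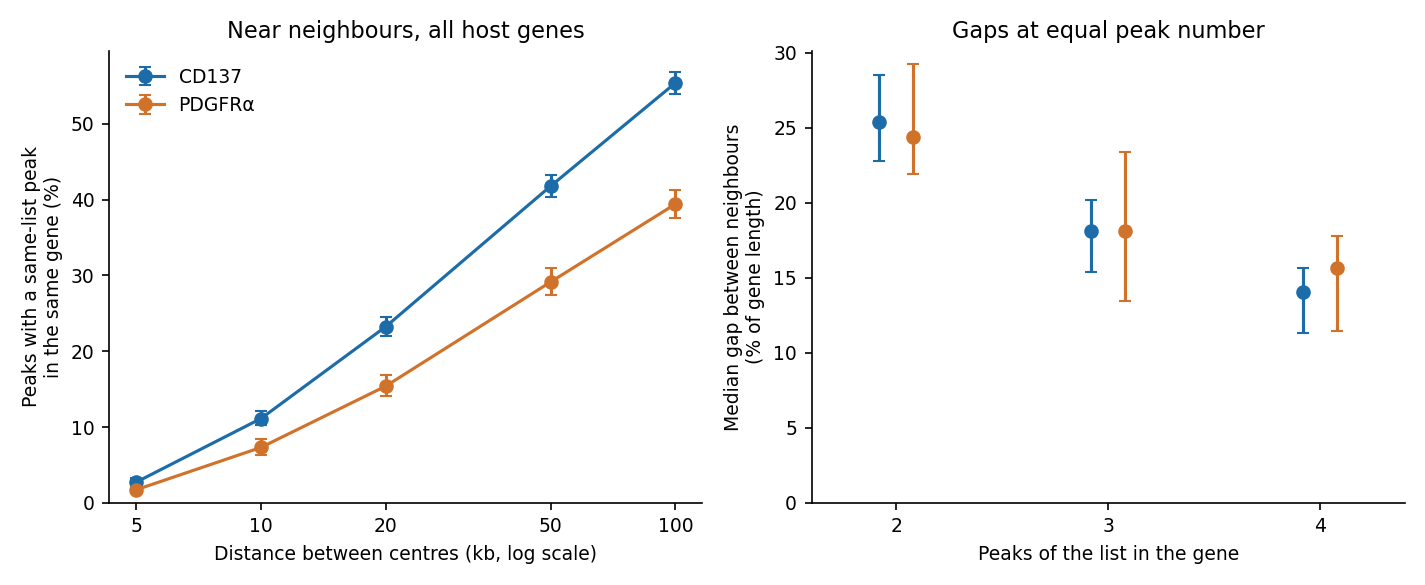
Share of intronic peaks with another peak of the same list in the same gene against the distance allowed between centres (left, kb on a log scale), and the median gap between neighbouring peaks as a percentage of gene length for genes with 2, 3 or 4 peaks (right). Bars are 95% intervals of counting error; CD137 lies above PDGFRα at each of the 5 distances, whereas the intervals of the gaps overlap at each number of peaks.

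Runs of CD137 intronic peaks, with neighbouring centres at most 20 kb apart in the same gene, numbered 464 in 420 genes. Of these runs 391 held 2 peaks, 60 held 3 and 13 held 4 or 5. The PDGFRα list had 188 runs in 177 genes, of which 170 held 2 peaks and 18 held 3, its largest number. These counts are not adjusted for list size, and the CD137 list held 1.71 intronic peaks for each PDGFRα one. No count of runs in sets of equal size is given. The runs spanned a median of 13.5 kb for CD137 and 12.3 kb for PDGFRα. A peak of the other list lay inside 27 CD137 runs (5.82%) and 17 PDGFRα runs (9.04%).

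The largest runs held 5 CD137 peaks each, in Ltbp1 and in Spon1, which encodes the matrix protein F-spondin. The genes of the runs of 4 and 5 were chosen after their values were seen. In Ltbp1 the run extended over 48.4 kb at chr17:75080747-75129134, with peaks of 989 to 1752 bp, and the only PDGFRα intronic peak of the gene lay outside it. In Spon1 it extended over 44.3 kb at chr7:113872400-113916693, with peaks of 1285 to 1930 bp, again without a PDGFRα peak inside. Runs of 4 lay in Ank3, Asap2, Bckdhb, Fyn, Galnt2, Glis3, Macrod2, Pepd, Pip4k2a, Srgap1 and Wwp2. Those in Ank3, Asap2, Fyn and Galnt2 each enclosed 1 PDGFRα peak, and the others enclosed none. Their genes have unlike roles, such as the membrane scaffold ankyrin G (Ank3), a kinase of the Src family (Fyn), a zinc finger regulator (Glis3) and a ubiquitin ligase (Wwp2).

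Within any 20 kb no gene held more than 3 CD137 intronic peaks, and 37 genes held 3. The shortest named genes among the 37 were the mitochondrial adenylate kinase gene Ak4 (51.3 kb), Pmepa1, the glycolate oxidase gene Hao1 (57.0 kb), the amyloid precursor-like gene Aplp2 (62.3 kb), the innate immunity regulator gene Ilrun (69.3 kb) and the Rab regulator gene Rab3gap2 (82.7 kb). In Ilrun the 3 centres spanned 10.1 kb and in Ak4 18.3 kb. Of these 6 genes, Aplp2 and Rab3gap2 had 1 PDGFRα intronic peak each and the other genes had none.

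**Figure D4:**
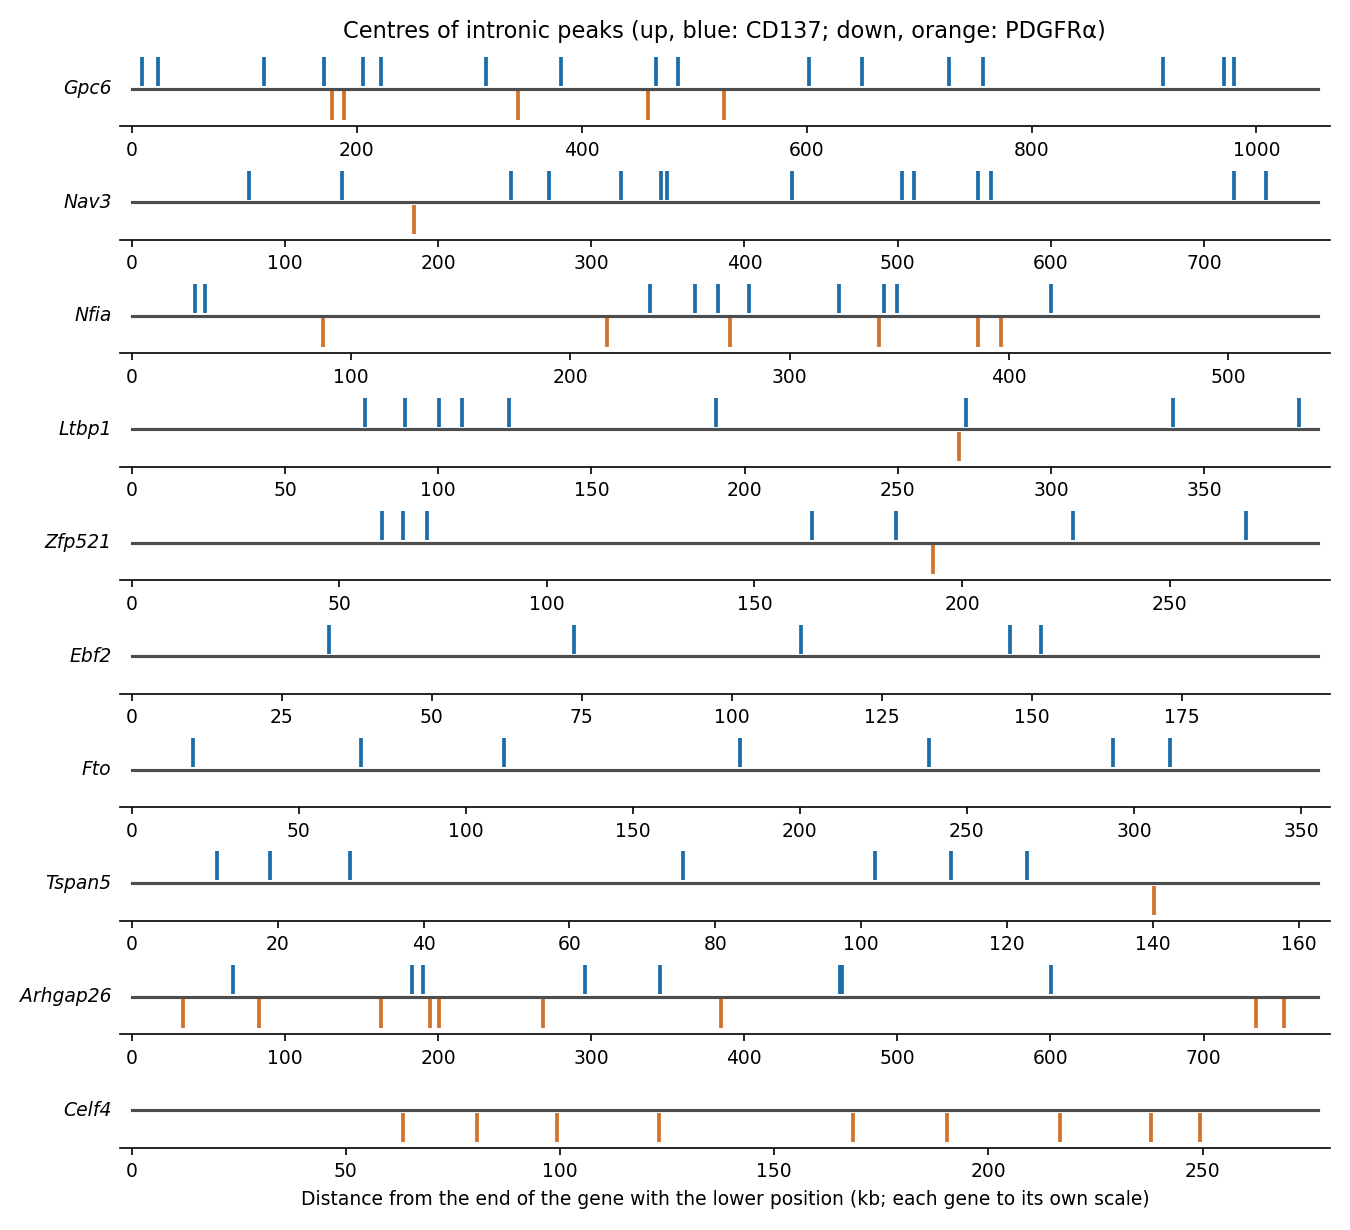
Centres of CD137 (blue, above the line) and PDGFRα (orange, below) intronic peaks along 10 host genes, in kb from the gene end with the lower position, each gene to its own scale. Gpc6 shows 17 CD137 peaks along 92.0% of its span, Ltbp1 a run of 5, and Celf4 9 PDGFRα peaks with no CD137 peak.

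Where both lists had peaks in the same gene, their order varied, and it was not tested against a random order. In the 43 genes with 2 peaks of each list, the lists alternated in some order in 21 (48.8%, interval 34.6 to 63.2%), stood side by side in 14 (32.6%, 20.5 to 47.5%), and in 8 (18.6%, 9.74 to 32.6%) both peaks of one list lay between those of the other. For the 2130 CD137 peaks in shared hosts the median distance to the nearest PDGFRα intronic peak of the gene was 45.1 kb (42.1 to 48.2 kb). It was at most 5 kb for 9.11% of them and at most 20 kb for 28.9%. In Gpc6, for example, all 5 PDGFRα peaks lay between CD137 peaks, whereas in Tspan5 the 1 PDGFRα peak lay above the highest of 7 CD137 peaks in position.

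The place of CD137 intronic peaks along the gene was close to that of PDGFRα peaks, and their distance from the gene start was greater. Strand and start were known for the hosts of 3383 CD137 and 1992 PDGFRα peaks. Over 5 equal sections of 20% of the gene, in the direction of transcription, the CD137 shares were 19.1%, 24.2%, 22.3%, 19.7% and 14.6%, and each differed from the PDGFRα share by at most 1.19 points, with an interval that includes 0. The median distance to the nearest start of the own gene was 53.1 kb for CD137 (interval 49.9 to 55.8 kb) and 42.5 kb for PDGFRα (39.9 to 46.5 kb). Peaks within 5 kb of a start were 4.14% of the CD137 set and 5.47% of the PDGFRα set (CD137 minus PDGFRα -1.33 points, -2.59 to -0.166). Peaks at over 100 kb were 32.0% and 27.4% (4.59 points, 2.06 to 7.08). The CD137 peaks lay in longer genes, with a median host span of 193 kb per peak against 160 kb, and the part of length in the distances was not tested.

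Few host genes had unique peaks of other classes as well. Of the 2543 Ensembl IDs with a CD137 intronic peak, 15.1% also had an exonic CD137 peak, 5.86% one of the class up5k and 5.07% one of the class down5k. Of the 1837 IDs with a PDGFRα intronic peak, 9.85%, 4.35% and 3.32% had a PDGFRα peak of these classes. Among the same PDGFRα IDs, 15.1%, 5.06% and 5.66% had a CD137 peak of these classes. Most IDs of either set thus had no peak of these 3 classes from their own list, which says nothing of promoters open in both groups.

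Transcription factors of fat cell formation held the highest CD137 density of the 25 gene lists examined. Their 26 genes had 53 CD137 and 17 PDGFRα intronic peaks, 16.6 and 5.32 per Mb, against 4.16 and 2.44 per Mb over all protein-coding genes. The CD137 share of these peaks was 75.7% (exact interval 64.0 to 85.2%), beside 63.1% over all genes (61.9 to 64.2%). Intronic CD137 peaks occurred in 12 of the 26 genes and PDGFRα peaks in 7, against 11.1% and 8.06% of all protein-coding genes, whose median length of 17.2 kb was below the 64.1 kb of this list. In addition, 5 of the 9 members with at least 3 peaks reached the 3-fold excess of CD137 that 38.5% of all such genes reached. The lists were chosen with earlier results of these data known, and peaks of 1 gene are not independent, so these shares are a description.

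Inside that list the peaks were concentrated in a few long regulators. Nfia had 10 CD137 and 6 PDGFRα peaks, Zfp521, which restrains adipogenic commitment, 7 and 1, the CREB-family gene Creb5 7 and 0, and Zfp423, a determinant of preadipocytes, 6 and 2. The early B cell factors were Ebf1 with 5 and 2, Ebf2, a factor of brown and beige identity, with 5 and 0, and Ebf3 with 2 and 0. Nfib had 4 and 3, Rxra, the partner of PPARγ, 3 and 1, Pparg, the main regulator of fat cell differentiation, 2 and 0, Stat5b 1 and 0, and Nfix 1 and 2. Nfix was the only one of the 12 with more PDGFRα than CD137 peaks. The other 14, among them the short genes Cebpa, Cebpb, Cebpd and Klf15, had no intronic peak of either list. The 5 Ebf2 peaks (gene at chromosome 14, 67233292 to 67430952) lay 32.8, 73.8, 112, 146 and 152 kb from the lower end of the gene.

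Thermogenic and beige genes had 16 CD137 and 5 PDGFRα peaks in 22 genes. The CD137 share was 76.2% (52.8 to 91.8%), an interval that includes the 63.1% over all genes. Of the 22 genes, 7 (31.8%) had a CD137 intronic peak, against 11.1% of all protein-coding genes. The median length was 31.5 kb in this list and 17.2 kb over all genes. The hosts included Ppargc1a (662 kb), Esrrg (606 kb) and Prdm16 (321 kb), and 78.1% of all genes from 300 to 1000 kb had a CD137 peak. The part of length was not tested. Ebf2, which is also in the first list, supplied 5 of the CD137 peaks. The oestrogen-related receptors Esrrg and Esrrb had 4 and 2 CD137 peaks beside 2 and 0 PDGFRα peaks. Prdm16, a determinant of brown fat, had 2 and 1, and Ppargc1a, a coactivator of mitochondrial genes, 1 and 0. Ucp1, the uncoupling protein of heat production, had none in either list. Lipid handling genes had 5 and 5 peaks in 24 genes, led by the fatty acid transporter gene Cd36 with 2 and 1. Genes of the glucocorticoid receptor and its response had 15 and 8 in 26 genes, with 3 and 0 in the coactivator gene Ncoa3, 3 and 1 in Pik3r1, 2 and 0 in the mineralocorticoid receptor gene Nr3c2 and 1 and 1 in the chaperone gene Fkbp5. Both counts gave CD137 shares whose intervals include that of all genes (50%, 18.7 to 81.3%, and 65.2%, 42.7 to 83.6%).

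Of the genes named in the labels or tied to the treatment, Tead1, a DNA-binding partner of YAP, had 2 CD137 and 1 PDGFRα intronic peak, and Tnfrsf9, Pdgfra and Nr3c1, the glucocorticoid receptor gene, had none. The Hippo pathway list as a whole had 15 and 14 peaks in 31 genes, a CD137 share of 51.7% (32.5 to 70.6%). The Hippo kinase gene Stk3 had 3 and 0 and Frmd6 2 and 0, whereas the phosphatase gene Ptpn14 had 0 and 2. DNA methylation genes had 5 and 4 in 18 genes, with 3 and 0 in the methyl-CpG reader gene Mbd2 and 0 and 3 in Mbd5. The intervals of both lists (21.2 to 86.3% for DNA methylation) include the share over all genes.

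Synaptic and neuronal adhesion genes, 34 genes with a median length of 996 kb, had 113 CD137 and 50 PDGFRα peaks. The CD137 share was 69.3% (61.6 to 76.3%), an interval that includes the 63.1% over all genes. Of the 34 genes, 27 (79.4%) had a CD137 peak, against 11.1% of all protein-coding genes. Among genes of similar length the share was 78.1% from 300 to 1000 kb and 91.5% above 1000 kb. In 13 of the 24 members with at least 3 peaks CD137 reached the 3-fold excess, and in 3 PDGFRα did, beside 38.5% and 7.72% of all such genes. Opcml had 12 and 1, the IgLON gene Lsamp 8 and 2, Ntm 6 and 0, and Cntnap5a 6 and 0, while Nlgn1 had 0 and 5, Rbfox1, an RNA splicing regulator, 1 and 5, and Ctnnd2 4 and 6. The direction thus differed between members. Per Mb these genes were below all genes in both lists, at 3.12 against 4.16 for CD137 and 1.38 against 2.44 for PDGFRα.

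Cadherins, the calcium-dependent adhesion proteins, had 37 and 12 peaks in 21 genes (75.5%, 61.1 to 86.7%), with 6 and 1 in each of Cdh13, Cdh18 and Pcdh9, 4 and 0 in Pcdh15 and 0 and 4 in Cdh6. Axon guidance genes had 57 and 24 in 34 genes (70.4%, 59.2 to 80.01%), with 9 and 1 in Sema5a, 4 and 0 in the Slit receptor gene Robo1 and in Plxna4, and 3 and 4 in Slit3. Glypicans and heparan sulfate enzymes had 35 and 13 in 23 genes (72.9%, 58.2 to 84.7%), of which Gpc6 alone held 17 and 5. Receptor tyrosine phosphatases had 41 and 21 in 17 genes (66.1%, 53.0 to 77.7%), with 11 and 2 in Ptprd but 7 and 7 in Ptprg and 7 and 6 in Ptprm. The intervals of all 4 lists include the share over all genes.

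Actin and matrix genes had CD137 shares near that over all genes, which lies inside each of their intervals. The list of actin and focal adhesion genes had 78 and 43 peaks in 33 genes (64.5%, 55.2 to 73.0%). It includes the microtubule-associated gene Nav3 with 14 and 1, so its share is not one of actin genes alone. Lpp had 6 and 6 and dystonin (Dst) 6 and 3. Collagens and matrix genes had 63 and 35 in 37 genes (64.3%, 54.0 to 73.7%), with 9 and 1 in Ltbp1, 6 and 0 in the procollagen protease gene Adamts2, 5 and 6 in Adamtsl1 and 3 and 5 in Col8a1. Both Col1a1 and Col3a1, the main fibrillar collagen genes, had none.

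In 5 lists of signalling genes and channels the CD137 share lay between 44.0 and 62.2%, each with an interval that includes the share over all genes. TGF-β and BMP signalling genes had 11 and 14 peaks in 33 genes (44.0%, 24.4 to 65.1%), with 3 and 4 in Bmp6, and Wnt signalling genes had 23 and 14 in 35 genes (62.2%, 44.8 to 77.5%), with 5 and 2 in the transcription factor gene Tcf7l2 and 4 and 2 in the receptor gene Ror1. Growth factor receptor and PDGF genes had 29 and 22 in 36 genes (56.9%, 42.2 to 70.7%), with 6 and 2 in Nrg1 and 5 and 2 in the IGF1 receptor gene Igf1r. Cyclic nucleotide phosphodiesterases had 33 and 30 in 20 genes (52.4%, 39.4 to 65.1%), with 5 and 3 in Pde1a and 1 and 5 in Pde10a. Potassium and calcium channels had 52 and 34 in 35 genes (60.5%, 49.3 to 70.8%), with 6 and 4 in Cacna1c and 0 and 3 in Cacna1d.

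Nuclear receptors had 31 and 21 peaks in 35 genes (59.6%, 45.1 to 73.0%), with 4 and 7 in the orphan receptor gene Rora, 3 and 5 in the thyroid hormone receptor gene Thrb and 3 and 3 in the oestrogen receptor gene Esr1. The list of AP-1, RUNX, SOX, forkhead and other regulators had 79 and 40 in 48 genes (66.4%, 57.2 to 74.8%). Foxp1 and Camta1 had 8 CD137 peaks each, beside 4 and 1 PDGFRα peaks, Auts2 had 7 and 1, Ets1 5 and 0, and Bach2, a basic leucine zipper repressor, 2 and 6. The short AP-1 genes Fos, Fosb, Jun, Junb and Jund had no intronic peak of either list.

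**Figure D5:**
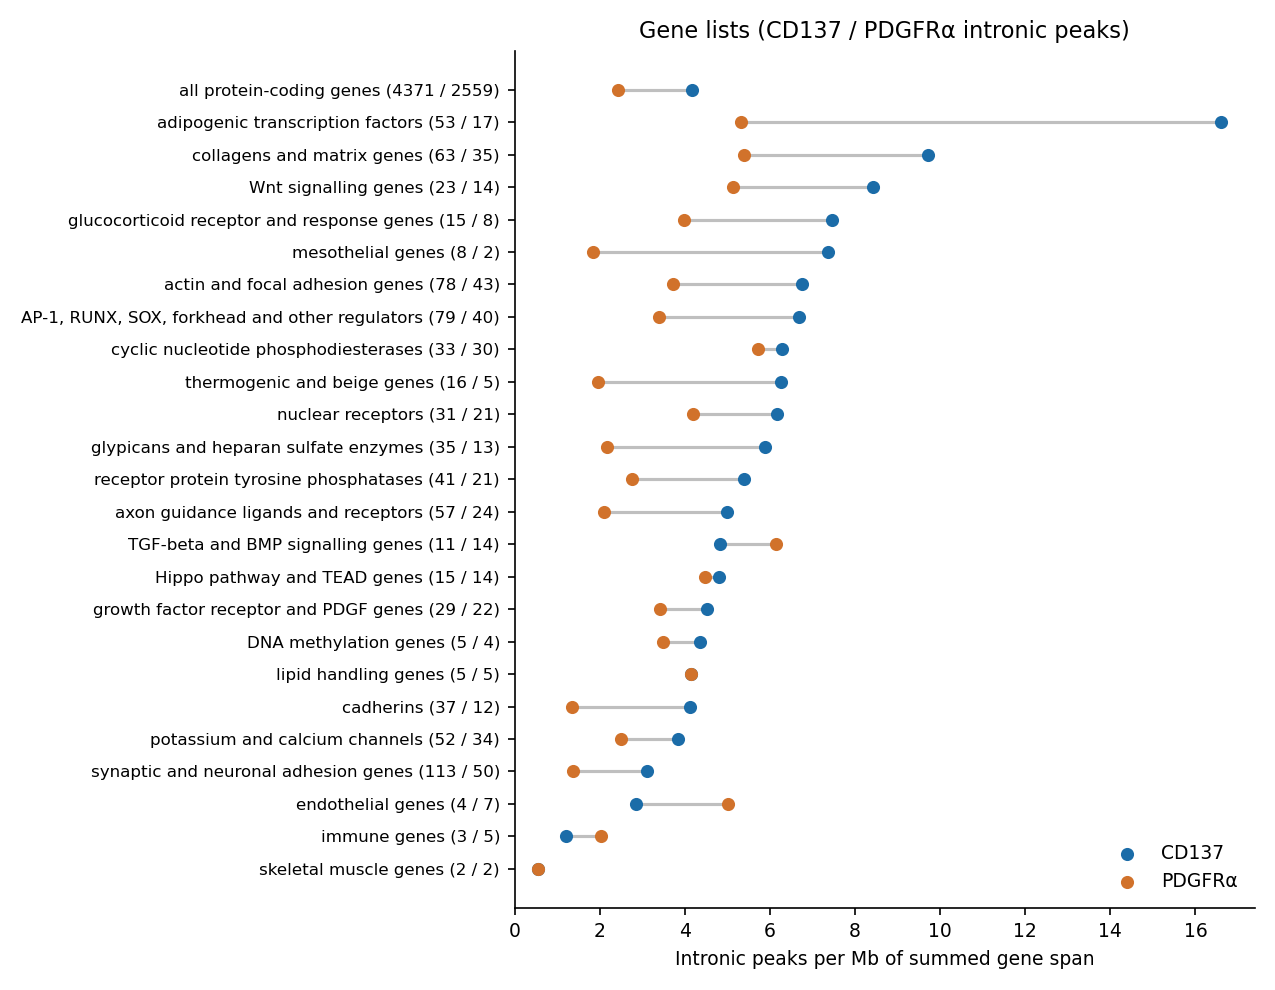
CD137 (blue) and PDGFRα (orange) intronic peaks per Mb of summed gene span for all protein-coding genes and the gene lists described in the text, ordered by CD137 density, with the numbers of peaks in brackets. Adipogenic transcription factors stand highest at 16.6 and 5.32 per Mb; CD137 lies below PDGFRα for the TGF-β and BMP, endothelial and immune lists.

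Most markers of the sorted cells and of other cell types had no intronic peak of either list. Over all protein-coding genes, 11.1% had a CD137 intronic peak and 8.06% a PDGFRα intronic peak. Of 4 beige progenitor markers only Ebf2 had a CD137 intronic peak, and of 6 stromal progenitor markers only Dpp4 had one (1 peak); neither set had a PDGFRα intronic peak. Tnfrsf9, the gene of CD137 itself, had no CD137 peak of any class within its span and 1 PDGFRα peak, which was not intronic. Of 6 endothelial markers, 1 had a CD137 peak (Tek, 1) and 3 had PDGFRα peaks (Erg 3, Kdr 1 and Flt1 1). None of 5 immune markers had an intronic peak of either list, of 4 mesothelial markers only Wt1 had one (1 PDGFRα peak), and of 4 muscle markers only Ttn (1 CD137 peak). Among 4 neuronal markers, Rbfox3 had 2 and 0, Syt1 1 and 3, Snap25 0 and 1, and Tubb3 none. The wider lists gave 4 and 7 peaks for 21 endothelial genes, 3 and 5 for 26 immune genes, 8 and 2 for 14 mesothelial genes (Bnc2 4 and 1, Gpm6a 2 and 0) and 2 and 2 for 19 skeletal muscle genes. Unique peaks do not show the level of a marker, so the labelled cell types could be neither checked nor refuted with them.

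The widest CD137 intronic peak spanned 4720 bp in Cxxc5, a CpG-binding regulator of Wnt signalling. The next were 4604 bp in Fto, an RNA demethylase (chr8:91329277-91333881), 4092 bp in Ahnak, a large scaffold protein, 3912 bp in Ebf1 and 3885 bp in Zmiz1, a PIAS-like coactivator. Fto (355 kb) had 7 CD137 and no PDGFRα intronic peak, at 18.2, 68.6, 111, 182, 239, 294 and 311 kb from the lower end of the gene, and the wide peak was the one nearest that end. Ahnak had 1 and 1, Zmiz1 2 and 0 and Cxxc5 1 and 0.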

How the data were processed

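The authors deposited 1 list of unique peaks for each of the 2 groups. Per the file headers, a deposited peak has its borders in bp, a place class and an Ensembl gene ID, and no height, score or count. The submitters' processing notes name genome build mm10 and CASAVA 1.8, with no role. Not given in the sources used here are the aligner, peak caller, threshold, read shift, the rule for unique peaks and whether starts count from 0 or 1. Gene spans, promoter windows and hairpins came from RefSeq tables of GRCm38.p6 (mm10). Each intronic peak was assigned to the protein-coding gene holding its centre (the longest if several did) and by that position to a symbol, because the tables used here do not pair Ensembl IDs with symbols.

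Named genes were those of the labels, the 12 with most CD137 peaks, the 8 densest with at least 4 peaks, the 6 with the largest difference each way, the 6 with most centres within 20 kb, the hosts of the 5 widest peaks, the 6 longest without a CD137 peak and up to 3 members per list with most peaks, ties going to the shorter gene. Members of the lists named beyond these, the place and start distances, other classes, spread and counts by gene, and the 2 results on genes over 1000 kb and on adipogenic transcription factors were chosen after seeing the data. The members, lists and rules were chosen with earlier results of these data known. Alternatives changed the size of the lists, minimum widths, merging, the host rule and thresholds. One of the 25 gene lists and 1 further gene are not reported here. Steps were tested on simulated data. The tools were scipy 1.17.1, pandas 2.3.3 and numpy 2.4.6 under Python 3.11.15, with matplotlib 3.10.9 for plots.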

Additional observations from a re-analysis of the deposited data

How the results depend on the processing

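No paired analysis was possible because each group has 1 library, and no library could be left out. Over 10 results, 2 of them chosen after seeing the data, and the other settings tried, no direction was reversed where the interval excluded 0 or, for ratios, 1. Taking the 2688 widest CD137 peaks moved the share of CD137 hosts that also hold a PDGFRα peak from 36.4% to 41.9%, the share of hosts with 2 or more peaks from 38.3% to 31.5%, the near-neighbour difference at 20 kb from 7.85 to 2.77 points, the number of genes at 3-fold CD137 excess from 299 to 136 and the ratio in genes over 1000 kb from 2.98 to 1.46. This setting has fewer CD137 peaks by construction and selects by width; how much each contributes was not tested. Keeping peaks of at least 1000 bp, which leaves fewer peaks of both lists, gave 33.6% for shared hosts and 34.5% for hosts with 2 or more. The near-neighbour difference was 3.81 points at 10 kb and 12.6 points at 50 kb. The relative gap in genes with 2 peaks differed by -7.05 points in genes over 300 kb only (interval -17.0 to 2.26); the cause was not tested. The number at 2-fold excess was 472, and with at least 5 peaks in both lists together 123 genes reached 3-fold. The other 42 recomputed values stayed within the interval of the value reported or, for the number of genes, within 1.5 times of it. Depth is unknown and limits every count: a deeper library or a looser threshold lengthens a list of unique peaks, and these cannot be told apart from the cell groups here.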
